A study of Homo sapiens with 6 samples.

Results

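The genes described here are 10 regulators of the passage from G2 into and through mitosis. They are the cyclins CCNB1, CCNB2 and CCNA2, the kinase CDK1, the phosphatases CDC25B and CDC25C, the mitotic kinases PLK1, AURKA and BUB1, and CDC20. They were taken by name from the 60612 genes of the deposited expression table, and all 10 were found and passed the filter that left 19279 genes for testing. RNA sequencing had measured U251 cells, an established human glioma line labelled as wild type. There were 3 control libraries without 6-shogaol and 3 libraries of cells given 6-shogaol for 24 h, a pungent ketone of dried ginger, at a dose labelled 60 "μm" and read here as micromolar. Controls were collected at the same 24 h, and no vehicle is named for them in the labels. The comparison addressed anti-cancer effects of the compound on glioma cells.

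CDK1 drives entry into mitosis when it is bound to an A- or B-type cyclin and when CDC25 phosphatases have removed the inhibitory phosphates that WEE1 and PKMYT1 add. PLK1 and AURKA help to switch this complex on and build the spindle, BUB1 works at kinetochores in the spindle checkpoint, and CDC20 activates the anaphase-promoting complex, a ubiquitin ligase that marks B-type cyclins for destruction. Transcripts of most of these genes accumulate in G2, through promoters read by the MuvB complex with B-MYB and FOXM1 or, in resting cells, repressed by the DREAM complex, and glioma cell lines in culture express them because they divide.

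The libraries held between 43516840 and 60018999 counts, and single counts of the 10 genes ran from 1136 for CDC25C to 21140 for CCNB1. Counting error was below the SD between libraries for each of the 10 in both groups, and came closest to it for CDC25C in controls (2.23% against 3.16% of the mean). Mitochondrially encoded genes took 9.81% to 10.7% of counts in controls and 8.34% to 10.5% with 6-shogaol. 6-shogaol replicate 1 stood apart on principal component 2, at -30.2 against values from -11.7 to 14.2 in the other libraries. Of 7 astrocytic and glioma markers 5 had a mean of at least 5 CPM (counts scaled to library size), led by VIM, and their sum ran from 8143 to 8298 CPM in controls and from 6707 to 10804 CPM with 6-shogaol. VIM made up most of that sum, and 3 of the 7 markers fell with 6-shogaol in the edgeR test used below: GFAP (log2 fold change -1.62, adjusted p = 0.00655), FABP7 (-1.41, 0.0385) and NES (-0.42, 0.0484). Over all genes tested 1.71% were called lower. On the opposite strand, CCDC103 and FAM187A share 18.4% of the GFAP exon length. The part of these 3 markers in the results was not tested. Of 7 markers of blood, endothelial and epithelial cells none reached that level. Their sum ran from 1.63 to 1.95 CPM in controls and from 1.63 to 2.81 CPM with 6-shogaol, and CD3E had no count in any library. The labels do not state whether replicates came from separate cultures, and the p-values cover library-to-library spread of possibly technical origin.

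With 6-shogaol 4 of the 10 transcripts fell, those of CCNB1, CDC20, AURKA and PLK1, and 0 rose (quasi-likelihood test of edgeR, with p adjusted by Benjamini-Hochberg over all genes tested and a threshold of 0.05). Over all 19279 genes 1.71% were called lower, 1.67% higher and 3.38% in either direction. At an unadjusted p under 0.05 edgeR had 7 of the 10 lower and 0 higher, against 9.95% of all genes lower and 10.4% higher. After adjustment DESeq2 called 5 of the 10 lower and 0 higher, against 6.02% of its genes lower and 6% higher. In limma on log2(FPKM + 1) the counts were also 5 and 0, against 2.51% lower and 3.53% higher. These shares are also the background of the counts by the same rules for other lists of genes below. The 10 genes and the other lists were chosen with earlier results of these data known. An excess over these shares is therefore not a test of the set. The median log2 fold change of the 10 was -0.46, against -5.32e-05 over all genes tested, and their values ran from -0.94 for CCNB1 to 0.14 for CDK1. In 7 genes every 6-shogaol library lay below every control, an arrangement found in 13.9% of all genes tested, and in CDK1 every 6-shogaol library lay above every control, found in 14% of all genes. The summed level of the 10 genes was 1804, 1796 and 1672 CPM in control replicates 1, 2 and 3 and 1303, 1230 and 1248 CPM with 6-shogaol. Of 17 S-phase genes, such as PCNA and MCM3, 8 rose in the same libraries and 0 fell (list median 0.37), and their part in the mitotic result was not tested. In RNA of a whole culture, fewer cells in G2 or mitosis and less of each transcript per cell cannot be told apart.

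**Figure D1:**
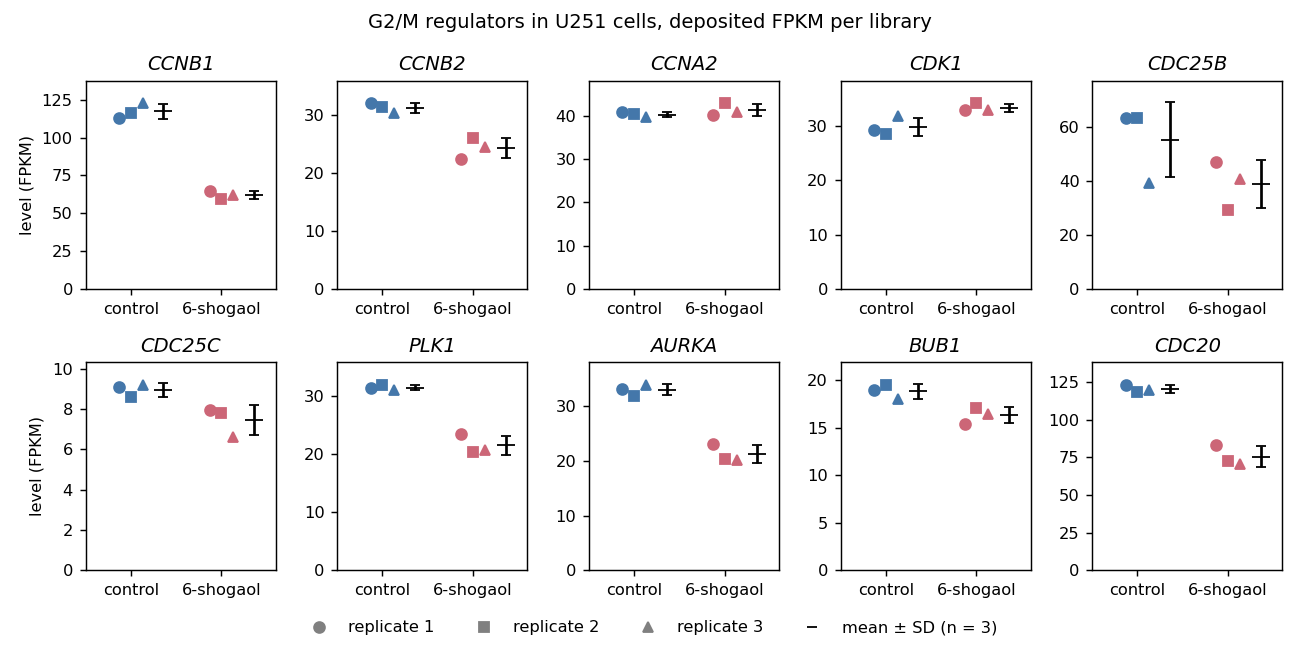
Deposited FPKM values (fragments scaled by gene length and library size, vertical axes from 0) of the 10 genes in each control (blue) and 6-shogaol (red) library, with the mean ± SD of 3 libraries in black. CCNB1, CDC20, AURKA and PLK1 separate widely, CCNA2 does not separate, and CDK1 lies slightly higher with 6-shogaol.

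Promoters of G2/M genes are known for a pair of short elements, and the sequences just before the transcription starts are shown so that those elements can be seen in the members themselves. RefSeq windows from 250 bases before to 50 bases after a start (GRCh38.p14) matched 9 of the 10 genes, with 16 windows in all since some genes have several starts. They were searched on both strands for the hexamer TTTGAA, its variant TTTAAA, a further variant TTCGAA, and the form CTTGAA, which are forms of the cell cycle genes homology region (CHR) that MuvB complexes bind, and for CCAAT, the box bound by NF-Y. The hexamers were chosen with these promoters in view, a palindromic match was counted once, and no match shared bases with another in these windows. The 120 bases upstream of the start are given below for CCNB1, CDC20, PLK1, CCNB2 and CCNA2, 5′ to 3′ on the gene's strand, with matches to either element in capitals. For CDK1 the sequence is a 30-base site before its second RefSeq start. Outside that site the same window also held a box at -46 and hexamers at -13 and 10, counted from the start.
CCNB1, chr5:69167030-69167149, plus strand: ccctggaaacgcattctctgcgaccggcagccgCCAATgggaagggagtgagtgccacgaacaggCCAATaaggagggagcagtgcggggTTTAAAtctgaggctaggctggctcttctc
CDC20, chr1:43358861-43358980, plus strand: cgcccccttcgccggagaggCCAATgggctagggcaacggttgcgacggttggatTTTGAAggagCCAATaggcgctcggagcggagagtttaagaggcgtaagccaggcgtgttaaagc
PLK1, chr16:23678769-23678888, plus strand: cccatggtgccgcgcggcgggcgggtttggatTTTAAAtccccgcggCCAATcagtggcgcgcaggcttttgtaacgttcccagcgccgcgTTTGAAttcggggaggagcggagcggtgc
CCNB2, chr15:59105026-59105145, plus strand: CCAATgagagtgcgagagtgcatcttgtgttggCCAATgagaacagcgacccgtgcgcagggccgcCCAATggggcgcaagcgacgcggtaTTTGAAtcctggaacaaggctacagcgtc
CCNA2, chr4:121823884-121824003, minus strand: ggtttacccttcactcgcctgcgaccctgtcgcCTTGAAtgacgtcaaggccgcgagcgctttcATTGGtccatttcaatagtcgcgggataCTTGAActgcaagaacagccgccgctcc
CDK1, chr10:60778400-60778429, plus strand: ATTGGctgcTTTGAAagtctacgggctacc

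The CCNB1 window held 1 hexamer and 2 boxes, and the CCNB2 window held 2 hexamers and 4 boxes. In each of them the hexamer closest to the start began 25 bases after the nearest box upstream, at position -30 in CCNB1 and -29 in CCNB2 counted from the start. The corresponding spacing was 28 bases in CCNA2, 35 in CDC20 and 44 in PLK1. In BUB1 a hexamer began at position 2, 55 bases after the nearest box. In the window of the second CDK1 start a hexamer began at position 10, also 55 bases after the nearest box upstream. That window held another hexamer nearer to the same box, with the hexamer at -13 and the box at -46. A hexamer was found in at least 1 window of all 9 matched genes and so was a box. By window, 12 of 16 (75%) held a hexamer and 11 (68.8%) held both elements, against 32.2% and 12.4% of all 35116 RefSeq windows of that length. Of all windows, 15.2% held TTTGAA, while 12.2% held the variant TTTAAA. The variant TTCGAA was in 1.45% and the form CTTGAA in 11.2% of them, and the box CCAAT was in 34.6%. Windows of 1 gene can overlap, so these counts are not independent, and a match of letters is not a measured binding site. The hexamers were chosen with these promoters in view, so the excess over all windows is not a test.

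**Figure D2:**
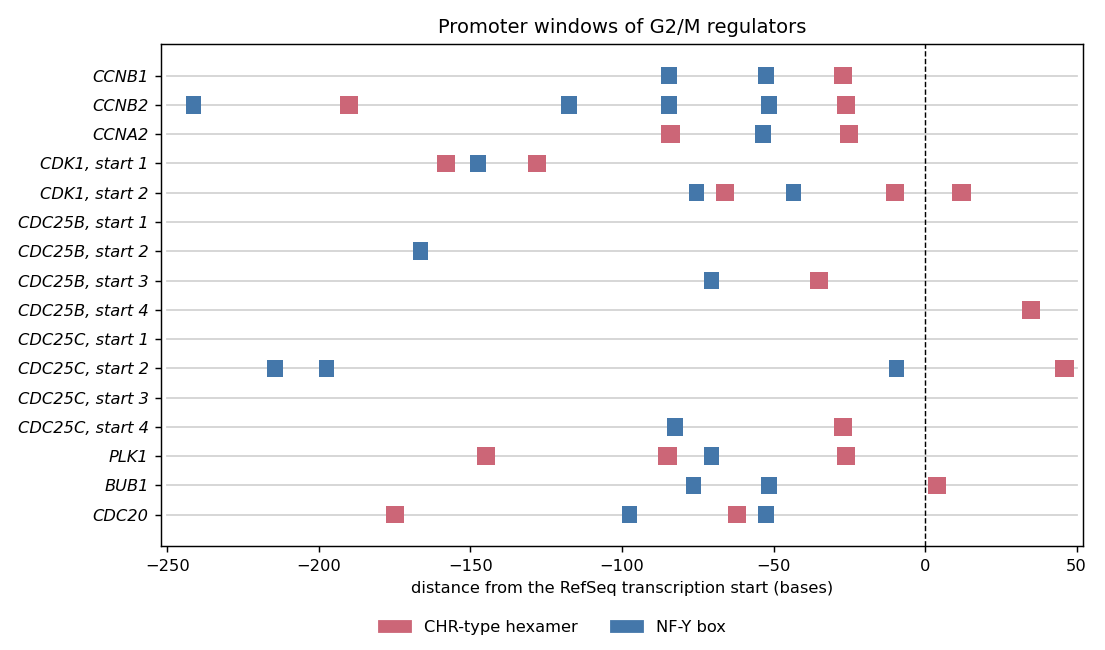
Positions of CHR-type hexamers (red) and NF-Y boxes (blue) in the 16 RefSeq windows of 9 genes, as distance in bases from the transcription start (dashed line). In CCNB1, CCNB2, CCNA2 and PLK1 the hexamer closest to the start lies from -30 to -28 with a box upstream of it.

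CCNB1, the main cyclin of mitotic entry (ENSG00000134057, chromosome 5, 69167135 to 69178245, plus strand), fell the most among the 10 genes. Its level was 113, 116 and 123 FPKM in control replicates 1, 2 and 3 and 64.7, 59.3 and 62.1 FPKM in 6-shogaol replicates 1, 2 and 3. Every treated library lay far below every control, with a spread between replicates much smaller than the gap. On the CPM scale the mean went from 340.1 ± 11.7 to 177 ± 4.61 (SD, n = 3), 47.9% lower (log2 fold change -0.94, SE 0.06, edgeR adjusted p = 0.00209). Leaving out any 1 library kept the log2 fold change between -0.96 and -0.91 and the call.

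CCNB2, the second B-type cyclin (ENSG00000157456, chromosome 15, 59105126 to 59125045), stood at 32.1, 31.4 and 30.3 FPKM in controls and at 22.5, 26.1 and 24.5 FPKM with 6-shogaol. The groups did not overlap, but the gene missed the threshold (log2 fold change -0.38, 95% interval from -0.58 to -0.18, edgeR adjusted p = 0.0618). It passed in DESeq2 (adjusted p = 0.00439), in limma on log2(FPKM + 1) (0.0409) and log2(FPKM + 0.1) (0.0423), and in edgeR with a filter of 1 CPM (0.0463).

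CCNA2, the A-type cyclin of S phase and G2 (ENSG00000145386, chromosome 4, 121816444 to 121823883), stood at 40.9, 40.3 and 39.6 FPKM in controls and at 40.0, 42.8 and 40.9 FPKM with 6-shogaol. The groups overlapped, and the log2 fold change of 0.01 had a 95% interval from -0.14 to 0.17 (edgeR adjusted p = 0.934). A fall of the size seen in CCNB1 lies outside that interval. Its sign changed without control replicate 3 and without 6-shogaol replicate 2, and 9.08% of its exon length is shared with EXOSC9 on the opposite strand, whose reads the counting may not separate.

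The make-up of the mitotic cyclin pool was looked at after the values were seen and is given without a test. FPKM of all A- and B-type cyclin genes summed to 193, 195 and 200.1 in control replicates 1, 2 and 3 and to 132, 132 and 132 with 6-shogaol. CCNB1 made up 58.7%, 59.6% and 61.3% of that sum in controls and 49.1%, 44.9% and 47.0% with 6-shogaol. CCNA2 made up 21.2%, 20.6% and 19.8% in controls and 30.3%, 32.4% and 30.9% with 6-shogaol. CCNB2 made up 16.6%, 16.1% and 15.1% in controls and 17.1%, 19.7% and 18.5% with 6-shogaol, although its own level was lower. All are shares of the same sum, so a share can rise because CCNB1 was lower. In FPKM, CCNB1 and CCNB2 together stood at 5.00 ± 0.187 times the CDK1 level in controls. The multiple was 2.60 ± 0.0823 with 6-shogaol (SD, n = 3). FPKM depend on the length taken for each gene, so the size of this multiple differs between scales. Mean CPM of CCNB1, CCNB2 and CDK1 were 340, 102 and 140 in controls and 177, 78.8 and 154 with 6-shogaol.

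CDK1, the kinase itself (ENSG00000170312, chromosome 10, 60778331 to 60794852), was not called, unlike CCNB1. Its level was 29.2, 28.4 and 31.7 FPKM in controls and 32.9, 34.1 and 32.9 FPKM with 6-shogaol. All treated libraries lay above all controls by a small margin (log2 fold change 0.14, 95% interval from -0.02 to 0.30, edgeR adjusted p = 0.306).

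The CDC25 phosphatases, which activate CDK1, were not called. CDC25B (ENSG00000101224, chromosome 20, 3786772 to 3806121) stood at 63.4, 63.5 and 39.2 FPKM in controls and at 47.0, 29.5 and 40.6 FPKM with 6-shogaol. Control replicate 3 lay within the treated range and made this the most variable of the 10 genes, with 285 ± 73.7 CPM in controls and 197 ± 41.7 CPM with 6-shogaol (SD, n = 3). Its log2 fold change was -0.53 (SE 0.23, edgeR adjusted p = 0.247), -0.73 without control replicate 3 and -0.38 without 6-shogaol replicate 2, and it was called in none of these fits. CDC25C (ENSG00000158402, chromosome 5, 138285265 to 138331877) had the lowest level of the 10, with 9.06, 8.57 and 9.20 FPKM in controls and 7.94, 7.82 and 6.62 FPKM with 6-shogaol. Its groups did not overlap, and its log2 fold change of -0.28 did not pass (95% interval from -0.50 to -0.06, edgeR adjusted p = 0.152). FAM53C on the opposite strand shares 8.78% of the CDC25C exon length.

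PLK1, the Polo kinase that promotes CDK1 activation, centrosome maturation and cytokinesis (ENSG00000166851, chromosome 16, 23677656 to 23690366), stood at 31.5, 32.0 and 31.1 FPKM in controls. With 6-shogaol it stood at 23.5, 20.4 and 20.8 FPKM, so that every treated library was below every control. It fell from 179 ± 3.88 to 120.2 ± 7.36 CPM (SD, n = 3), 32.7% lower (edgeR log2 fold change -0.57 with SE 0.07, adjusted p = 0.0102). The call was lost without control replicate 1 (adjusted p = 0.0555), without control replicate 2 (0.0635), without 6-shogaol replicate 2 (0.0515) and without 6-shogaol replicate 3 (0.0536).

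AURKA, the Aurora kinase of centrosomes and spindle poles that activates PLK1 (ENSG00000087586, chromosome 20, 56369389 to 56392296), stood at 33.0, 31.9 and 33.9 FPKM in controls and at 23.1, 20.4 and 20.1 FPKM with 6-shogaol. It fell by 0.66 on the log2 scale (SE 0.07, edgeR adjusted p = 0.00827), and in fits without 1 library its value ran from -0.71 to -0.62 with the call kept. BUB1, the checkpoint kinase that marks kinetochores (ENSG00000169679, chromosome 2, 110637528 to 110678063), stood at 18.9, 19.5 and 18.0 FPKM in controls and at 15.5, 17.1 and 16.4 FPKM with 6-shogaol. Its groups were close but did not overlap, and its log2 fold change of -0.23 did not pass (95% interval from -0.41 to -0.05, edgeR adjusted p = 0.156).

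CDC20, the activator of the anaphase-promoting complex (ENSG00000117399, chromosome 1, 43358981 to 43363203), had the highest mean FPKM of the 10 in both groups, although CCNB1 was above it in control replicate 3. It stood at 123, 118 and 119 FPKM in controls and at 83.2, 72.3 and 70.6 FPKM with 6-shogaol. It fell from 288 ± 7.13 to 178 ± 13.4 CPM (SD, n = 3), 38.3% lower (log2 fold change -0.70, SE 0.07, edgeR adjusted p = 0.00798). Without 1 library its value ran from -0.76 to -0.65 and it kept its call. The processed pseudogene CDC20P1, whose reads may belong to CDC20, held between 140 and 375 counts per library, against at least 7271 for CDC20, and had a log2 fold change of -0.92 (edgeR adjusted p = 0.0259). In CPM, treated replicate 1 was the highest of the 3 treated libraries for CCNB1, CDC25B, PLK1, AURKA and CDC20. The same library was the lowest for CCNB2, CCNA2, CDK1 and BUB1. Without that library, which stood apart, 4 of the 10 genes were again called lower. Genes called in all then numbered 1012, against 651 with all libraries.

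The order of levels, read in FPKM because that scale is per length, differed between the groups. FPKM rest on the length taken for each gene, which need not be that of the transcript expressed. The order between genes therefore also depends on that length. In controls CDC20 (120.2 ± 2.64 FPKM) and CCNB1 (117 ± 4.87 FPKM) overlapped at the top, and for each of them 98.9% of the genes tested were at or below its level. With 6-shogaol CDC20 (75.4 ± 6.86 FPKM) lay above CCNB1 (62.1 ± 2.70 FPKM) in every library, and these remained the 2 highest. CDC25B and CCNA2 came next, overlapping in both groups. In controls AURKA, PLK1, CCNB2 and CDK1 followed in that order at 29.8 to 32.9 FPKM, each overlapping its neighbour. With 6-shogaol CDK1 (33.3 ± 0.723 FPKM) overlapped CDC25B above it and lay clear above CCNB2 (24.4 ± 1.80 FPKM), PLK1 (21.5 ± 1.70 FPKM) and AURKA (21.2 ± 1.62 FPKM), neighbours that overlapped each other. BUB1 and CDC25C were the lowest in both groups.

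Whether the genes moved by unequal amounts was asked with the ratio of each to CDK1 within a library, which does not depend on how libraries are scaled. The log2 ratio of CCNB1 to CDK1 was 1.26, 1.34 and 1.26 in control replicates 1, 2 and 3 and 0.29, 0.11 and 0.23 with 6-shogaol, a difference of -1.08. For CDC20 the difference was -0.84, for AURKA -0.80 and for PLK1 -0.71. For CCNB2 it was -0.52, for CDC25C -0.42 and for BUB1 -0.37. In these 7 of 9 ratios the groups did not overlap, and each had p = 0.1 in a two-sided exact permutation test (0.129 after adjustment over the 9 ratios). The value of 0.1 is the smallest p that 3 libraries against 3 allow, so none could pass 0.05. All 9 share CDK1 as denominator, which had the highest log2 fold change of the 10 genes (0.14). The direction of all 9 differences comes with that choice. Over all 19278 other genes tested the ratio to CDK1 lay lower without overlap in 22.9% and higher without overlap in 6.31%. The ratios of CDC25B (-0.66) and CCNA2 (-0.13) to CDK1 had p = 0.2 in the same exact test. The CCNA2 ratio was -0.03, -0.02 and -0.20 in controls and -0.23, -0.19 and -0.20 with 6-shogaol, with control replicate 3 inside the treated range.

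**Figure D3:**
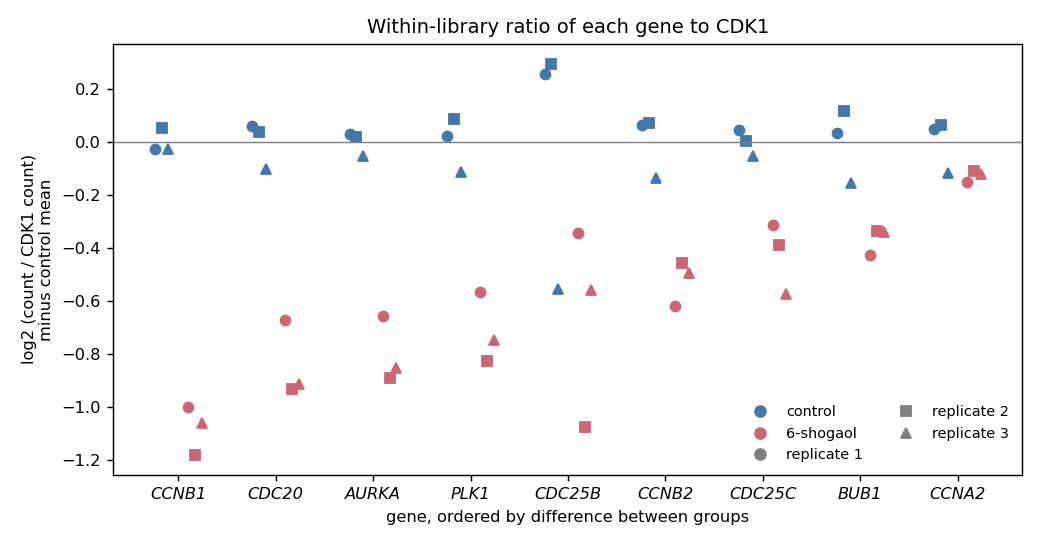
Within-library log2 ratio of counts of each gene to CDK1, minus the mean of that ratio in controls, for 3 control (blue) and 3 6-shogaol (red) libraries. CCNB1 shows the largest separation (-1.08), and in CDC25B and CCNA2 control replicate 3 lies among the treated libraries.

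Other regulators of the same steps, 85 genes in 9 lists by role, moved in both directions. Of 84 tested 6 fell and 3 rose, and their median log2 fold change was -2.91e-03. Without any 1 library other than 6-shogaol replicate 1, 0 of these genes was called lower and at most 1 higher, against 9 lower and 2 higher without that replicate. Genes called in all also differed, from 98 to 174 in the former fits and 1012 without 6-shogaol replicate 1. CCNB1, AURKA and CDC20 kept their calls in all of these fits.

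Among cyclins and CKS subunits that bind CDK1, CDK2 and the CDK-activating kinase (CDK7, CCNH and MNAT1), 2 of 8 fell. CCNA1, the second A-type cyclin, stood at 6.66, 7.19 and 7.41 FPKM in controls and at 4.62, 3.89 and 4.78 FPKM with 6-shogaol (log2 fold change -0.70, edgeR adjusted p = 0.0257). CKS2, a small CDK-binding subunit named after its value was seen, had a value of -0.36 (edgeR adjusted p = 0.0411). CDK7, the kinase that activates CDK1, had a value of 0.36 and did not pass (edgeR adjusted p = 0.103). Of the 3 genes around the inhibitory phosphates, WEE1, PKMYT1 and CDC25A, edgeR called 0, with 1 higher and 0 lower at an unadjusted p under 0.05, 0 in DESeq2 and 0 in limma. WEE1 had a log2 fold change of 0.14 and PKMYT1 of 0.29. KREMEN2 and PAQR4, on the opposite strand, cover 31.6% of the PKMYT1 exons.

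Of 8 tested CDK inhibitors and G2 checkpoint genes edgeR called 0, which counted 2 higher and 2 lower at an unadjusted p under 0.05. DESeq2 called 2 higher and limma called 0. CDKN1A, the CDK inhibitor p21, stood at 153, 163 and 88.5 CPM in controls and at 253, 257 and 247 CPM with 6-shogaol, clear of the controls (log2 fold change 0.91, edgeR adjusted p = 0.0689). Control replicate 3 was low, and without it the value was 0.68 and passed (adjusted p = 0.0277). Without any other 1 library CDKN1A did not pass (edgeR adjusted p from 0.1052 to 0.1801). GADD45A, a stress-inducible inhibitor of CDK1, stood at 29.2, 17.6 and 20.6 CPM in controls and at 39.7, 32.9 and 36.4 CPM with 6-shogaol (log2 fold change 0.69, edgeR adjusted p = 0.0981). It passed without control replicate 1 (0.93, adjusted p = 0.0495), but not without any other 1 library (edgeR adjusted p from 0.1586 to 0.2375).

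Of 11 other mitotic kinases tested, 2 were called higher and 0 lower, and the list median was 0.15. PLK4, the Polo kinase of centriole duplication, went from 39.4 ± 0.659 to 51.6 ± 3.45 CPM (SD, n = 3; log2 fold change 0.39, edgeR adjusted p = 0.0469). MELK, named after its value was seen, had a value of 0.33 (edgeR adjusted p = 0.0461). NEK2, a kinase of centrosome separation, had a value of -0.36 and missed the threshold (edgeR adjusted p = 0.0567). Of 6 cofactors of Aurora and Polo kinases 2 fell, with a list median of -0.28. They were CDCA8, the borealin subunit of the Aurora B complex (log2 fold change -0.33, edgeR adjusted p = 0.0343), and TPX2, the spindle protein that activates Aurora A (-0.29, edgeR adjusted p = 0.0383, named after its value was seen). BIRC5, the survivin subunit of the Aurora B complex, had a value of -0.41 and did not pass (edgeR adjusted p = 0.0772).

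Of 6 spindle checkpoint genes edgeR called 0, which counted 1 higher and 2 lower at an unadjusted p under 0.05. DESeq2 called 1 lower and limma called 0. BUB1B, which inhibits CDC20, had a log2 fold change of -0.24 and MAD1L1 of -0.39. Of 20 genes of the anaphase-promoting complex and mitotic exit 2 fell and the list median was -0.08. UBE2C, the ubiquitin-conjugating enzyme of the complex, fell by 0.39 on the log2 scale (edgeR adjusted p = 0.0351), and PTTG1, the securin gene named after its value was seen, by 0.34 (edgeR adjusted p = 0.0472). FZR1, which replaces CDC20 as activator at mitotic exit, had a value of -0.41 and did not pass (edgeR adjusted p = 0.145). Of 7 genes of the Greatwall and PP2A-B55 switch edgeR called 0, with 1 higher and 1 lower at an unadjusted p under 0.05, 1 higher in DESeq2 and 1 higher in limma. MASTL, the Greatwall kinase, had a value of 0.45 (edgeR adjusted p = 0.0619), with 12.2% of its exon length shared with YME1L1 on the opposite strand. ENSA, a Greatwall substrate that inhibits PP2A-B55, had a value of -0.38 (edgeR adjusted p = 0.239).

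Of 15 transcription factors and cofactors that read G2/M promoters, 1 was called higher and 0 lower (list median 0.07). The gene that rose was RBL1, the pocket protein p107 of the DREAM complex, from 42.3 ± 1.47 to 60.8 ± 4.19 CPM (SD, n = 3; log2 fold change 0.52, edgeR adjusted p = 0.0222). E2F5 had a value of -0.49 and did not pass (edgeR adjusted p = 0.131), with 16.3% of its exon length shared with a gene on the opposite strand. FOXM1, an activator of G2/M genes named after its value was seen, stood at 145, 169 and 215 CPM in controls and at 193, 169 and 181 CPM with 6-shogaol, inside the control range (log2 fold change 0.04, edgeR adjusted p = 0.913). MYBL2, the B-MYB gene, also named after its value was seen, stood at 134, 140 and 142 CPM in controls and at 180, 162 and 154 CPM with 6-shogaol (log2 fold change 0.26, edgeR adjusted p = 0.117).

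**Figure D4:**
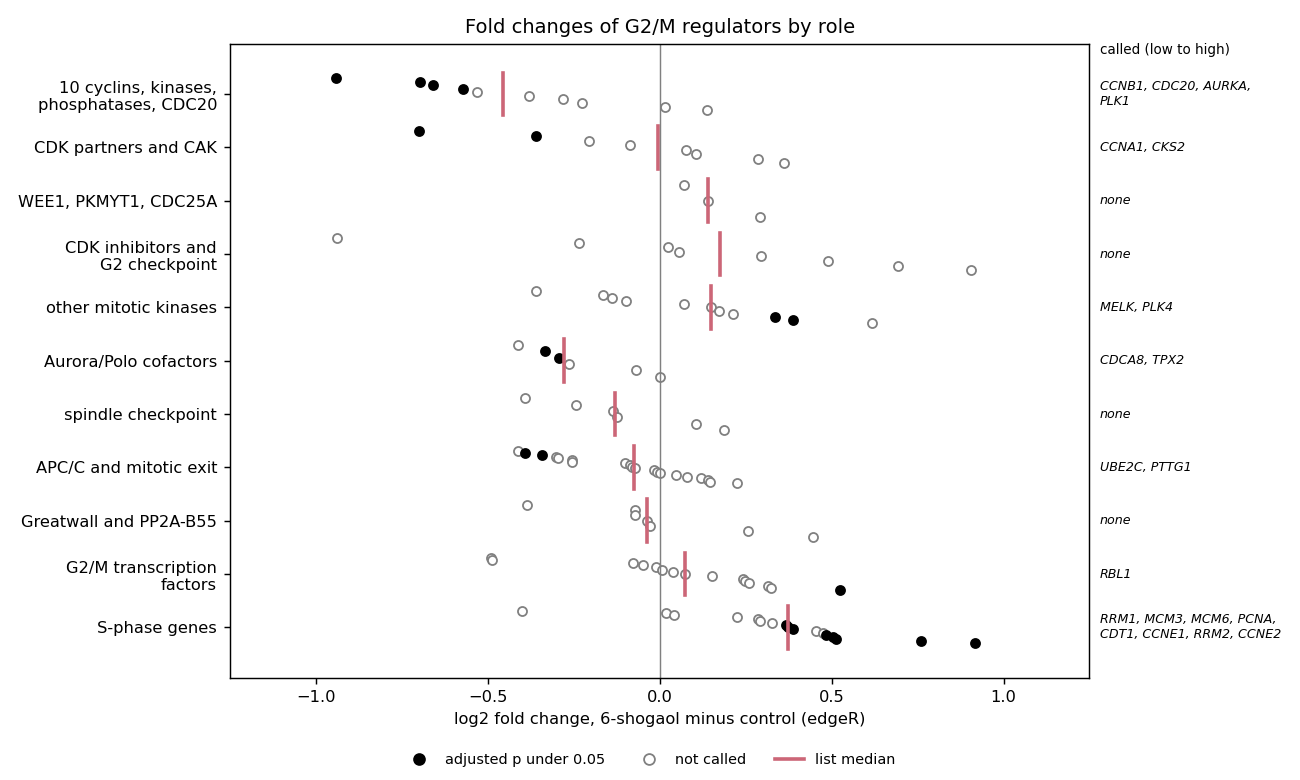
Log2 fold changes (6-shogaol minus control, edgeR) of the 10 genes, of 9 lists of other regulators and of S-phase genes, with filled points for adjusted p under 0.05, open points for genes not called, and a red bar for each list median. The medians run from -0.46 in the 10 genes to 0.37 in the S-phase genes.

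By likeness of profile, the genes closest to the mean of the 10 over the 6 libraries were TRAFD1, UBE2G1, ACIN1, HMOX2 and TMSB10. The measure was the root mean square difference in centred log2 CPM over the 6 libraries, among 11705 other genes at a mean level of 5 CPM or more, and it ran from 0.0214 for TRAFD1 to 0.0286 for TMSB10. Their log2 fold changes ran from -0.45 for ACIN1 to -0.36 for TMSB10, which the choice by profile fixes. The 10 genes themselves were farther from their own mean, from 0.0886 for PLK1 and 0.0911 for CCNB2 to 0.282 for CDC25B and 0.287 for CDK1. The named genes were picked as the closest, so nothing is drawn from that contrast.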

How the data were processed

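The authors deposited 1 table of raw counts per gene with 6 libraries as columns, and 1 table of FPKM with the same counts (0 values differed). Per the file headers, FPKM are the authors' values. No FPKM value is 0, and 0.0001 is the most common one. The aligner, counter and strand setting are not given in the sources used here. The submitters' processing notes name mouse builds, but the identifiers are human Ensembl genes. Coordinates are as deposited, and the genes overlap the same identifiers in GENCODE 29 on GRCh38. Groups came from the sample titles.

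The count test was that of edgeR 4.0.16 under R 4.3.3 (filterByExpr, TMM, glmQLFit and glmQLFTest, Benjamini-Hochberg over 19279 genes, threshold 0.05). The SE of a log2 fold change is its size over the root of the F statistic, and CPM are TMM-scaled. Alternatives were other scalings and filters, DESeq2 1.42.0, limma 3.58.1 on log2(FPKM + 1) or log2(FPKM + 0.1), the replicate block and leaving out each library. On simulated counts over 19279 genes, edgeR recovered 6 of 50 genes changed 1.5-fold, 30 of 50 at 2-fold, 48 of 50 at 3-fold and 50 of 50 at 4-fold, with 10 false calls. The changed genes were drawn at random from well-counted genes with their own spread. These rates are therefore not those of the 10 genes or of genes with few counts. A gene at 0 could have up to 0.05 to 0.0689 CPM (3 counts, counting error only). Between replicates, chi-square over its degrees of freedom was 34.2 to 71.5, beyond sampling noise.

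Members and lists were chosen with earlier results of these data known. Named were all 10 genes, the 2 tested genes of each of 9 lists with the largest absolute log2 fold change and a mean of at least 5 CPM, and the 5 closest profiles. Exon overlap used GENCODE 29 and neighbours averaging 10 counts or more.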

Additional observations from a re-analysis of the deposited data

How the results depend on the processing

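The 4 falls among the 10 genes were called in every edgeR fit with another scaling or filter, in DESeq2 and in limma on FPKM, with counts of 4 or 5. Without 1 library the count ran from 3 to 4, PLK1 being the gene lost. No member was called higher in any setting. The sign of CCNA2 reversed without control replicate 3 (-3.65e-03) and without 6-shogaol replicate 2 (-0.0277), and fits without 1 library ran from -0.0277 to 0.0499. Pairing by replicate number was not seen. Same-numbered libraries had deviations correlated at -0.03, 0.06 and -0.04 across genes, and the numbers were not best matches throughout. With 3 libraries per group, these correlations cannot show that the libraries were unpaired. With the replicate block edgeR called 3 genes in all, 0 of the 10 genes, and 0 lower and 0 higher among the other regulators, with fewer residual degrees of freedom. The log2 fold change of CCNB1 was then -0.94 (adjusted p = 0.0541). Genes called in all numbered 651, and 1866 in DESeq2, 378 with no filter, 277 in limma on log2(FPKM + 1) with no filter and from 98 (without control replicate 2) to 1012 (without 6-shogaol replicate 1) without 1 library. Of the other regulators, called 6 lower and 3 higher, DESeq2 called 13 lower and 7 higher, edgeR with no filter 1 and 1, limma with no filter 1 and 1, and fits without 1 library from 0 to 9 lower and from 0 to 2 higher. The cause of these shifts was not tested. Ratios to CDK1 kept their direction in FPKM and in every fit without 1 library. CDK1 had the highest log2 fold change of the 10 genes, so that direction comes with the denominator.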
